A study of Mus musculus with 8 samples.

Results

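The 2 loci described here are Memo1, on chromosome 17, and Cecr2, on chromosome 6, among the 53843 genes of the mouse annotation used. Each was taken as its gene body in the GENCODE annotation of the mm10 build (GRCm38) with a flank, which was 20 kb on either side of Memo1 and 50 kb on either side of Cecr2. The Memo1 window ran from 74179036 to 74315521 on chromosome 17 and the Cecr2 window from 120616369 to 120821190 on chromosome 6. They were chosen because they hold the pair of 1-kb tiles with the largest deficit of methylation in B cells against T cells, so the difference between the cell types at these tiles is given as a description, and the calls of tiles on this contrast are used only to describe extent. The Memo1 window held 1225 CpG sites listed in any library and the Cecr2 window 1903, of 20645953 such sites on the autosomes and the X chromosome. Of these, 1082 and 1721 were listed in all 4 libraries, or 87.3% and 88.8% of the CpGs of the reference in the windows.

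Whole-genome oxidative bisulfite sequencing was applied to resting B cells, taken as CD43- cells, and to naive CD4+ T cells (CD62Lhi, CD44lo and CD25-) sorted from spleens of C57BL/6J mice of both sexes aged 6 to 8 weeks. Oxidation turns 5-hydroxymethylcytosine into a base that reads as unmethylated, so that the reported level is 5-methylcytosine alone. The 4 groups (B and T cells of each sex) were each represented by 1 library table, although the labels list 2 samples per group, and each sample pooled cells of several mice. No agent or deletion was used. A level below is the share of methylated reads, with its 95% Wilson interval where given, which covers counting error only. Pairs of values for a cell type give females first and males second. Over several CpGs the reads at each CpG are summed, so a read that spans several CpGs counts at each of them. The intervals, and the limits given where no read was methylated, treat these counts as separate reads and can be too narrow. No spread between animals can be given. The level is a mean over the cells and both alleles, and a middle level cannot be told apart from a mixture of methylated and unmethylated copies.

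Methylation of cytosine in CpG pairs covers most of the mammalian genome, is usually absent at CpG-rich promoters, and is lost at enhancers and other regulatory stretches as a lineage commits to its fate. Memo1 encodes a conserved protein known as a mediator of cell motility downstream of the receptor tyrosine kinase ErbB2. Cecr2 encodes a bromodomain protein that pairs with ISWI-type ATPases in chromatin remodelling complexes. Accessibility and RNA were not analysed here, so a low methylation level is named here only as such.

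The tables listed between 280919817 reads at CpGs (male B cells) and 354634149 (female B cells), with a median of 14 to 17 reads per CpG, and no CpG under 5 reads. The identity of the cells was checked at promoters, defined as 1 kb on either side of an annotated gene start. All 5 B cell marker promoters were lower in B cells (edgeR quasi-likelihood test, adjusted p under 0.05 and at least 20 percentage points), with Ms4a1, which encodes CD20, at -81.5 points. All 6 T cell marker promoters were higher in B cells, up to 92.1 points at Cd3d, against 1.37% of all 20501 promoters called in either direction. Among 7 markers of other cells, the promoters of Cd8b1 and Cd8a were lower in T cells, by 60.6 and 28.8 points, and those of Csf1r, Mpo, Ncr1 and Epor were not called. The promoter of Lyz2, a lysozyme gene of myeloid cells, stood at 48.4% and 47.2% in B cells and at 63.0% and 66.2% in T cells, a difference of -16.8 points that passed the adjusted p (edgeR, 0.000934) but not the minimum of 20 points.

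The sequences that carry the chosen differences are shown first, in lower case with every CpG in capitals. The Memo1 sequence is the last coding stretch of the gene on its own (minus) strand, chr17:74201197-74201325, and holds 3 of the 5 CpGs of the stretch that was low in B cells. The Cecr2 sequences, both on the plus strand, are the 300 bases richest in CpGs within the chosen block (chr6:120635774-120636073) and around the flanking block with the most CpGs (chr6:120644812-120645111).
Memo1 last coding stretch: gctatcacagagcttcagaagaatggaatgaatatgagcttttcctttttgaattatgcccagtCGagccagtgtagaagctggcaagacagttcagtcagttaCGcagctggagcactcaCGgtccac
Cecr2 chosen block: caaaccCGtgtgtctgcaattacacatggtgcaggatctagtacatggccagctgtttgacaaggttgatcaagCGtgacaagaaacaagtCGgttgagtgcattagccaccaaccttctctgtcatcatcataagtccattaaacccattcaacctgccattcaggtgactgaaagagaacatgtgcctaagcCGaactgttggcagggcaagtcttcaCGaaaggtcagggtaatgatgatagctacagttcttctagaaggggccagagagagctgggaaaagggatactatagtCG
Cecr2 flanking block: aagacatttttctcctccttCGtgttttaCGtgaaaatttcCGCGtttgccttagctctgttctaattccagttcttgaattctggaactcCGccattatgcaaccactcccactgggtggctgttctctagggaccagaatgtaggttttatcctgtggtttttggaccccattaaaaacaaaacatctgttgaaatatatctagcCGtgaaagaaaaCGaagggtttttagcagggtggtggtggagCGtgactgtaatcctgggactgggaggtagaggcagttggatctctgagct
In the Memo1 stretch the 3 CpGs together had 0 of 39 reads methylated in female B cells and 1 of 37 in male B cells, against 48 of 50 in female T cells and 57 of 60 in male T cells. In the first Cecr2 sequence 6 CpGs stood at 5.67% and 5.93% in B cells and at 92.2% and 90.2% in T cells. In the second, 8 CpGs stood at 20.8% and 17.7% in B cells and at 159 of 171 and 131 of 138 methylated reads in T cells, and both B cell levels were above those of the first sequence.

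The chosen Memo1 tile ranked 1 among the 12433 tiles lower in B cells, with a mean difference of -96.4 points. Female B cells had 0 of 58 reads methylated (Wilson interval 0 to 6.21%; a count of 0, taken as up to 3 counts, allows 5.17%), and male B cells had 1 of 57 (1.75%, interval 0.310 to 9.29%). Female T cells stood at 97.6% (91.7 to 99.3%) and male T cells at 97.0% (91.5 to 99.0%). B cells were low and T cells high in both sexes, as the choice of the tile required. At 74201157 and at 74201187 no read was methylated in either B cell library and every read was methylated in both T cell libraries. At 74201203 male T cells had 20 of 21 reads methylated and B cells none. At 74201220 the single methylated read of the male B cells was found, among 12 reads. At 74201260 the T cell levels were lowest, at 85.7% in females and 88.9% in males.

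To map the borders, reads of both sexes were summed per cell type and a block was defined as a run of CpGs with T minus B of at least 50 points, in which at most 1 CpG in a row could miss. The Memo1 block consisted of exactly those 5 CpGs and spanned 105 bases, from 74201157 to 74201261. It lay 94312 bases from the annotated start of Memo1, in its last exon, with 3 CpGs in coding sequence and 2 in the 3′ untranslated region. The next CpG towards the end of the gene, at 74200886, had 4 of 6 reads methylated in female B cells, 10 of 10 in female T cells, 19 of 21 in male B cells and 13 of 16 in male T cells. The border on this side was thus placed within 271 bases. On the other side the nearest CpG, at 74202815 in the last intron, was methylated in all 8 reads of each B cell library and in 5 of 7 and 6 of 7 reads of the female and male T cells. No CpG lies in the 1555 bases between, so the block could be as short as 105 bases or as long as 1927 bases. The 6 CpGs listed from 74199347 to 74200886 and the 6 from 74202815 to 74203296 all stood at 66.7% or more in both B cell libraries.

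**Figure D1:**
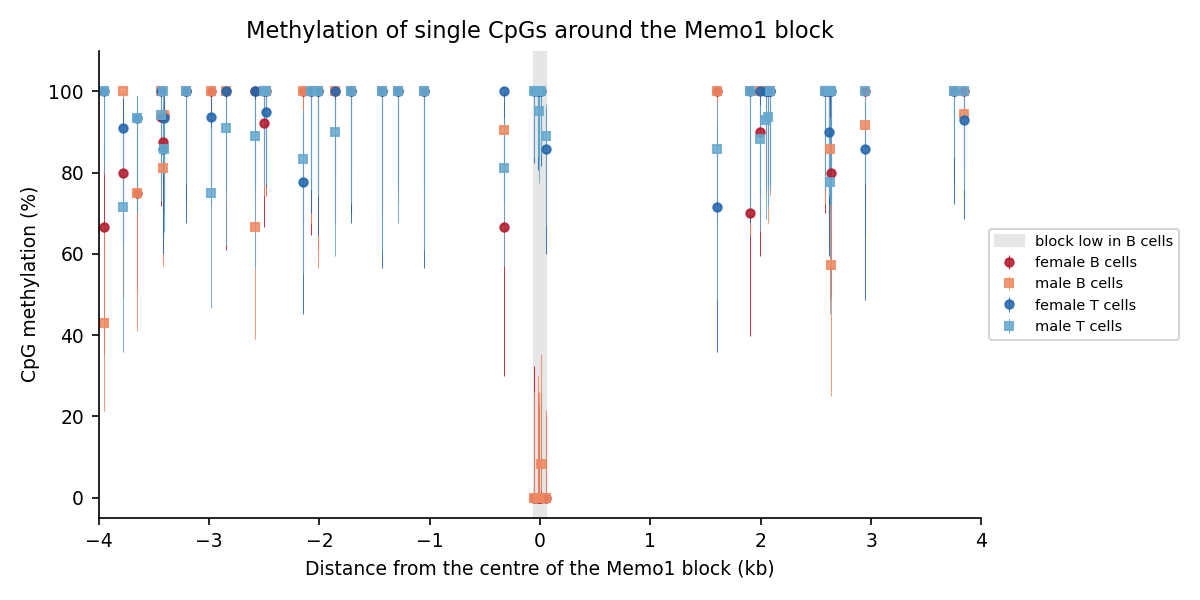
Methylation (%) of single CpGs against the distance (kb) from the centre of the Memo1 block, for female and male B cells (red and orange) and female and male T cells (dark and light blue), with bars for 95% Wilson intervals and grey for the block. The 5 CpGs of the block sit at 0 to 8.33% in B cells and at 85.7 to 100% in T cells, and within the 4 kb plotted on either side the B cell levels all lie above those of the block.

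The coverage of the Memo1 block also differed between the cell types. The mean number of reads per CpG in the block was 0.773 and 0.950 times the median of the window in B cells, and 1.29 and 1.43 times in T cells. The block sequence has close copies elsewhere in the genome. The search with the block and 100 bases on either side gave 3 matches, of which 2 are described here. A processed pseudogene on chromosome 11 (Gm11708, 107003779 to 107004038) matched the block with its flanks (74201065 to 74201325) at 93.1% identity over 262 aligned positions, and another on chromosome 3 (Gm18382, 62761899 to 62762156) at 92.2% over 258 positions. The 3 listed CpGs of the chromosome 11 copy had 57 of 60 and 36 of 39 reads methylated in B cells and 42 of 43 and 41 of 42 in T cells. The 3 of the chromosome 3 copy stood between 88.2% and 93.8% in the 4 libraries. Of the 5 CpGs of the block, 3 are also CG in the chromosome 11 copy and 2 in the chromosome 3 copy. Whether reads of the copies were placed on Memo1 in any library was not tested.

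Few other tiles of the Memo1 window were called. Of 94 tiles tested, 2 (2.13%) were lower in B cells, against 0.812% of all 1530528 tiles, and 3 (3.19%) were higher in B cells, against 2.36% of all tiles. Since the window was chosen on this contrast, nothing is read from these shares. Without the male T cells 4 tiles of the window were lower, with tiles shifted by 500 bases 4 were lower, by limma 1 was lower, and with at least 10 reads in every library none was higher. The other lower tile, 74195001 to 74196000, lay between genes beyond the end of Memo1 and differed by -27.4 points. It overlapped a second, smaller block of 97 bases (74194935 to 74195031) with 4 CpGs, 4005 bases from the gene, at 26.7% and 27.4% in B cells and at 76.9% and 78.3% in T cells. The tiles higher in B cells were all inside the gene body, 47.3, 57.3 and 58.3 kb from the block, with a largest difference of 22.9 points. At the last of them, B cells stood at 95.4% and 97.3% and T cells at 75.9% and 73.0% (females and males).

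The start of Memo1 was unmethylated in every library. A run of 164 CpGs over 2360 bases (74293883 to 74296242), in which every CpG stayed under 20% in all libraries but for single gaps, had 0.176% and 1.17% methylation in B cells and 0.143% and 0.240% in T cells. The promoter difference between B and T cells was 0.43 points (edgeR, adjusted p = 0.584). The 3 other annotated genes in the window were Dpy30, which encodes a subunit of histone H3 lysine methyltransferase complexes, and CT010445.1 and CT010445.2. The window around the annotated start of Dpy30 was methylated, at 93.9 to 96.4% in the 4 libraries.

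The chosen Cecr2 tile ranked 2 among the tiles lower in B cells, at -95.6 points. Female B cells stood at 2.48% (4 of 161 reads, interval 0.970 to 6.21%) and male B cells at 0.901% (1 of 111, 0.159 to 4.93%). Female T cells stood at 97.2% (141 of 145) and male T cells at 97.4% (190 of 195). The next tile in rank, on chromosome 11 near Gm9945, lay just outside the choice, at -92.9 points.

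The block low in B cells was shifted to the left of this tile. It ran from 120635551 to 120636548, or 998 bases, and all 17 CpGs in it passed 50 points. It lay between genes, 29821 bases upstream of the Cecr2 gene body. Over the block, B cells stood at 4.52% in females and 5.04% in males, and T cells at 95.5% and 92.1%. Single CpGs ranged from 0 to 25.0% in female B cells and from 0 to 17.6% in male B cells, with 9 and 11 of the 17 at 0. The lowest CpG of female T cells was 120635780, with 14 of 20 reads methylated, and that of male T cells was 120635645, with 19 of 27. The 7 CpGs nearest the right border included 4, from 120636187 to 120636457, with no methylated read in either B cell library. Mean coverage of the block was 1.14 and 1.17 times the window median in B cells and 1.06 and 1.40 times in T cells. The block with 100 bases on either side had 480 matches elsewhere in the genome. The match with the highest score lay in a lincRNA gene on chromosome 9 (Gm47214, 14962785 to 14963010), at 83.2% identity over 226 aligned positions, and the next within Ube2e2 on chromosome 14 (18616296 to 18616542), at 78.63% over 248. Both aligned to the right end of the block, from 120636423 and 120636409 onwards, and of the 17 block CpGs 0 and 1 are CG in them. Whether reads of such copies were placed on the Cecr2 block was not tested.

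The left border of the Cecr2 block was graded. The nearest CpG outside, 192 bases away at 120635359, stood at 7 of 17 methylated reads in female B cells and 7 of 10 in male B cells, while both T cell libraries were at 100%. Its pooled difference of 48.1 points narrowly missed the limit. Farther out, 120634829 stood at 83.3% and 91.7% in B cells, and 120634729 at 46.7% and 75.0%, against 94.4% or more in T cells. On the right, no CpG was listed in all 4 libraries for 671 bases, and 2 CpGs of the reference lay in the gaps without a value in every library. The first listed one, 120637218, stood at 71.4% and 46.2% in B cells and at 95.8% and 94.4% in T cells. A short block of 78 bases with 3 CpGs followed at 120637288, at 15.1% and 27.7% in B cells and 79.7% and 87.5% in T cells. From 120637584 to 120638670 every listed CpG stood at 91.7% or more in both B cell libraries. The block thus measured between 998 and 1857 bases at the limit of 50 points with all libraries. Without the male B cells its left edge moved to 120634729 and it measured 1820 bases.

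**Figure D2:**
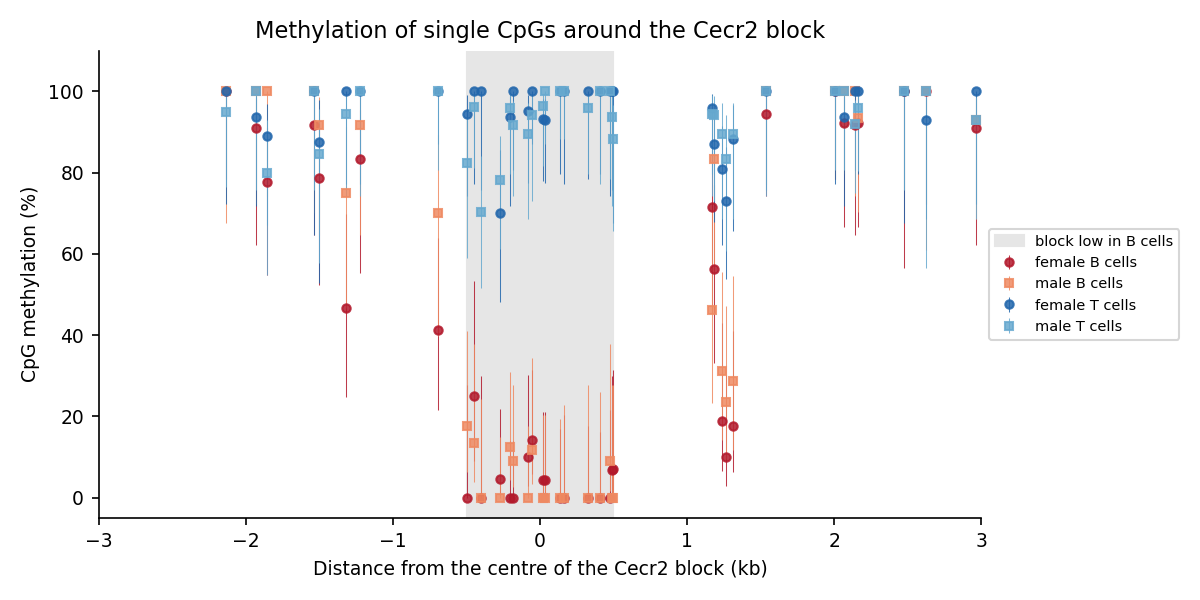
Methylation (%) of single CpGs against the distance (kb) from the centre of the Cecr2 block, with symbols, bars and shading as in the Memo1 plot. B cells sit at 0 to 25.0% within the block of 998 bases, at intermediate levels at the CpGs next to it, and mostly above 75% at the other CpGs within the 3 kb plotted, with the short block on the right as a second low stretch.

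The chosen block was the widest of a series. The same definition found 10 blocks low in B cells in the Cecr2 window, with 68 CpGs, all upstream of the gene and within 29982 bases (120618829 to 120648810), of which they covered 11.6%. The last of them ended 17559 bases before the annotated start of Cecr2. Blocks to the left of the window edge at 120616369 were not listed, although lower tiles were called there, so the series may continue on that side. The widths of the 10 blocks ran from 78 to 998 bases with a median of 210. Levels of the blocks in B cells ran from 4.08 to 28.7% (females) and from 0 to 32.8% (males). Those in T cells ran from 72.9 to 95.5% and from 70.5 to 93.9%. The outermost block on the left (120618829 to 120619368) was as low as the chosen one in B cells, with 2 of 49 reads methylated in females and 0 of 37 in males (Wilson interval 0 to 9.41%, or 8.11% at 3 counts), but held only 3 CpGs. The block at 120648126 to 120648388 kept the most methylation in B cells, at 28.7% and 32.8%. In the reference, 4 of the 10 blocks held no base masked as repeat, 1 was over 50% masked, and 6.11% of the chosen block was masked.

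**Figure D3:**
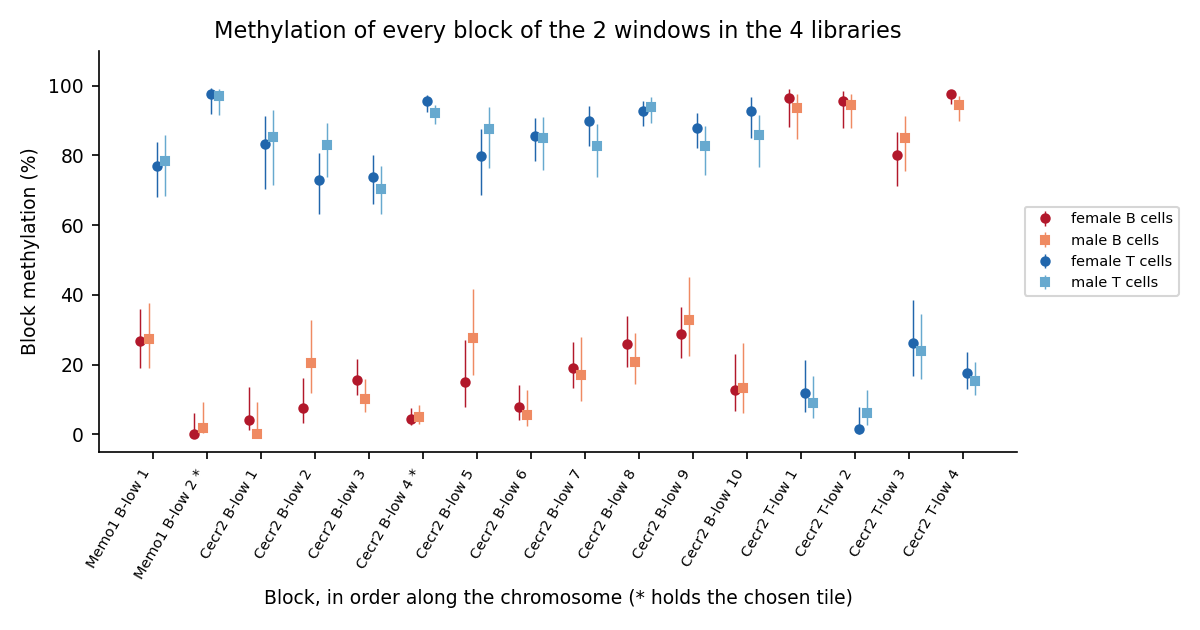
Methylation (%) of each block of the 2 windows, in order along the chromosome, in the 4 libraries, with bars for 95% Wilson intervals and an asterisk for the blocks that hold the chosen tiles. B cells sit at 0 to 32.8% in the 12 blocks low in B cells and at 80.0% or more in the 4 blocks low in T cells, where T cells sit at 1.47 to 26.2%.

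For comparison, the definition gave 7150 blocks low in B cells over the autosomes and 17666 low in T cells. The median block low in B cells was 176 bases wide with 4 CpGs. The Memo1 block was wider than 27.5% of them and the Cecr2 block wider than 97.9%. Within 29982 bases of a block start the median number of blocks was 1, and 13 starts (0.182%) had 10 or more, with a maximum of 12. This span was set to the length of the Cecr2 series within the window, whose first start is among the 13. Spans of neighbouring starts overlap, so these starts are not separate loci. These values describe the loci, which were chosen on the same contrast.

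Tiles lower in B cells were also called upstream of the Cecr2 window. Of 40 tiles tested in the flank before the gene, 13 were lower in B cells and none was higher. Between the window and the end of Hdhd5, the next protein-coding gene upstream, 10 of 69 tiles were lower in B cells, from 120562001 on, and none higher. The strongest of these, 120585001 to 120586000, differed by -62.1 points. In all, 23 of 110 tiles in the 135.0 kb between Hdhd5 and Cecr2 were lower in B cells, spread over 97 kb, and none was higher, against 0.812% and 2.36% of all tiles. The 23 include the chosen tile, and nothing is read from these shares. Within the window the 2 strongest tiles were adjacent, the tile at 120635001 to 120636000 differing by -80.0 points, and the others outside the chosen tile lay between -22.6 and -53.7 points.

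The tiles called in the Cecr2 gene body and beyond it were all higher in B cells, and most tiles there were not called. None of 60 tiles in the gene body was lower in B cells and 3 were higher, and in the flank after the gene 3 of 44 were higher. Over the whole window 13 of 146 tiles (8.90%) were lower and 6 (4.11%) higher, against 0.812% and 2.36% of all tiles, with nothing read from these shares. The gene body tiles held a pair of blocks low in T cells, both over coding exons of Cecr2. The first, of 257 bases (120756884 to 120757140), stood at 12.0% and 8.99% in T cells and at 96.6% and 93.7% in B cells. The second, of 143 bases (120761426 to 120761568), had 1 of 68 reads methylated in female T cells and 6 of 98 in male T cells, against 66 of 69 in female B cells and 87 of 92 in male B cells. The other 2 blocks low in T cells lay in an intron of Atp6v1e1, which encodes a subunit of the vacuolar proton pump. The larger, of 733 bases (120799555 to 120800287), stood at 17.7% and 15.4% in T cells and at 97.5% and 94.5% in B cells. The largest tile difference of this direction, 70.7 points, was there as well.

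**Figure D4:**
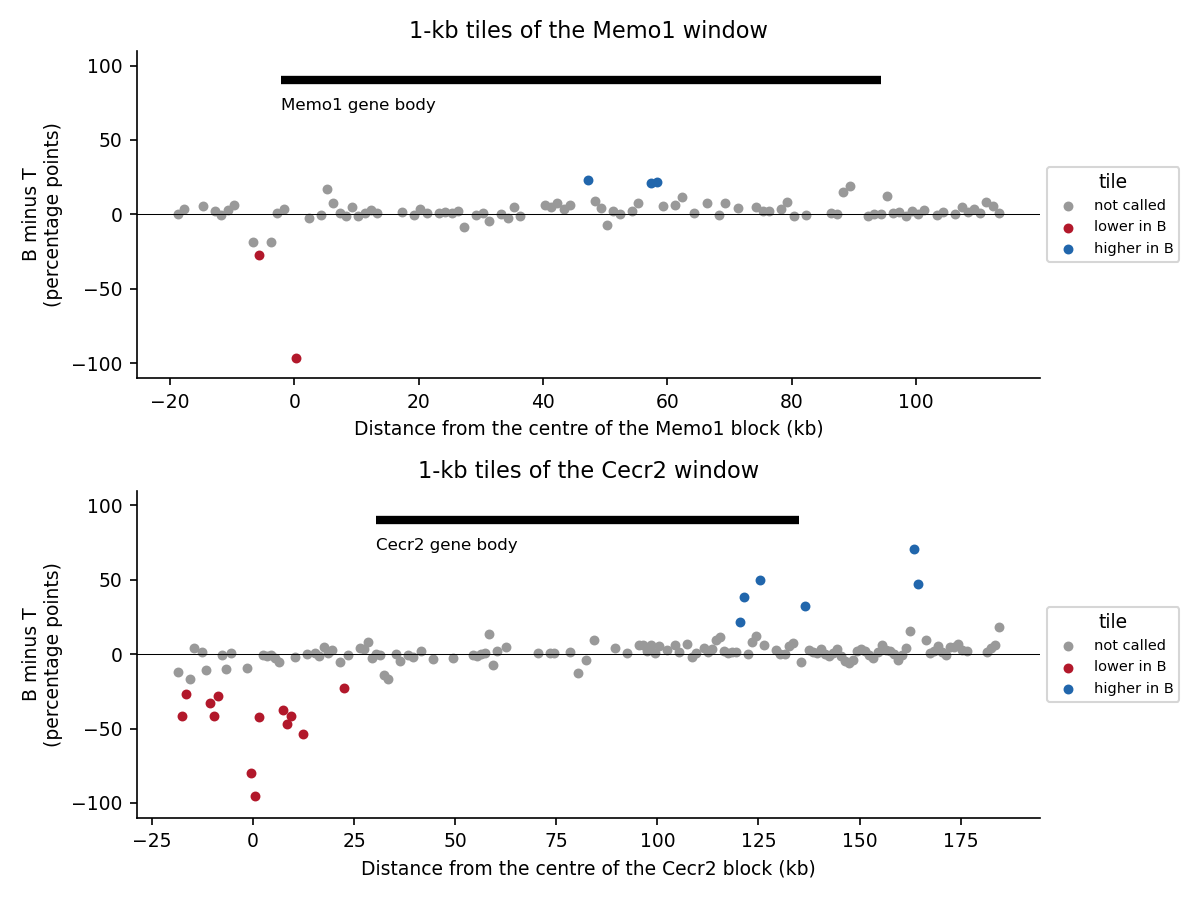
Mean difference of B minus T cells (percentage points) for each tested 1-kb tile against the distance (kb) from the centre of the block, for the Memo1 window (top) and the Cecr2 window (bottom), with a black bar for the gene body. Tiles called lower in B cells (red) are 2 near the end of Memo1 and 13 upstream of Cecr2, and tiles called higher (blue) are 3 within Memo1 and 6 in the downstream part of the Cecr2 window.

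The start of Cecr2 was unmethylated in both cell types. A run of 222 CpGs over 2763 bases (120665276 to 120668038) stood at 0.271% and 1.32% in B cells and at 1.14% and 1.22% in T cells. The promoter differed between the cell types by 0.22 points (edgeR, adjusted p = 0.748). Slc25a18, which encodes a mitochondrial glutamate carrier, had a methylated promoter at 77.3 to 88.2%, and that of Atp6v1e1 stood at 1.97 to 8.02%. Their differences of 7.33 and 4.45 points passed the adjusted p (edgeR, 0.0237 and 0.000151) but not the minimum of 20 points. The small RNA gene Gm25193 was the remaining gene of the window.

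Sex was not used to choose the loci and could be tested. None of the 240 tiles of both windows was called between females and males (edgeR, adjusted p under 0.05 and at least 20 points), against 0.0868% of all tiles. All tiles include those of the X chromosome, whereas both windows lie on autosomes. Even at that share few calls would be expected among 240 tiles, so nothing is read from their absence. The smallest adjusted p was 0.637 in the Memo1 window and 0.512 in the Cecr2 window, and 9 tiles had an unadjusted p under 0.05. Limma likewise called none, with 17 tiles under an unadjusted p of 0.05. The mean of females differed from that of males by at most 8.01 points in any Memo1 tile and 9.91 points in any Cecr2 tile. Females and males differed by -0.57 points at the chosen Memo1 tile and by 0.69 points at the chosen Cecr2 tile, where levels near 0 in B cells and near 100% in T cells, which the choice required, left no room for 20 points.

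The B minus T difference was also compared between the sexes. For the Memo1 tile it measured -97.6 and -95.2 points (females and males), and for the Cecr2 tile -94.8 and -96.5 points. These values of the chosen tiles are a description for the same reason. The contrast tested, a difference between means of 2 libraries, is smaller than the gap between such values. It was -1.19 points for the Memo1 tile and 0.889 points for the Cecr2 tile. None of the 240 tiles was called on this contrast, against 0.000784% of all tiles, and none passed without the minimum of 20 points. At so low a share nothing is read from the absence of calls. An unadjusted p under 0.05 was found at 13 tiles by edgeR and 22 by limma. Among the blocks, the widest gap between the sexes was 12.9 points in B cells, at the Cecr2 block 120626755 to 120626911 (7.46% in females, interval 3.23 to 16.3%, and 20.4% in males, 11.8 to 32.9%). With 1 library per group these p-values measure no spread between replicates. The sex test took its spread from the contrast used for B minus T between the sexes. The latter test took its own from the sex contrast, and both were drawn towards the spread over all tiles.

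Both smallest sex p-values were at tiles next to gene starts, where levels are near 0. At the Memo1 tile 74294001 to 74295000, male B cells stood at 1.32% and the other libraries at 0.0625 to 0.147%. At the Cecr2 tile 120667001 to 120668000, male B cells stood at 3.16%, female B cells at 0.169% and T cells at 1.84% and 2.29%. The share of methylated reads on mitochondrial DNA, taken as a measure of background, was 0.271% and 0.727% in B cells and 0.0733% and 0.0709% in T cells. Its part in these small differences was not tested.

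The complexes and pathways in which the 2 proteins work were examined at 20 promoters of listed partner genes. None was called between B and T cells (edgeR, adjusted p under 0.05 and at least 20 points), against 1.37% of all promoters called in either direction. Limma also called none. At this share few calls would be expected among 20 promoters, so nothing is read from their absence. Of the 20, 9 had an unadjusted p under 0.05 by edgeR, a share that was not counted over all promoters. Of 12 genes of ISWI-type remodelling complexes, 4 were higher in B cells when no minimum difference was asked, namely Smarca5, which encodes an ISWI ATPase, the subunit genes Baz2a and Rsf1, and the histone chaperone gene Rbbp4. Their differences were 3.88, 0.64, 1.51 and 0.73 points. Of 8 signalling partners of MEMO1, 4 were higher in B cells in the same way, which were the adaptor gene Shc1 (1.60 points), the cofilin gene Cfl1 (1.35), Plcg1, which encodes a phospholipase C (2.72), and the formin gene Diaph1 (1.31). Without a minimum difference 17.7% of all promoters were higher in B cells. None of these 8 promoters passed without the T cells of females or of males, with a smallest adjusted p over the 20 promoters of 0.216 and 0.218, or without the B cells of males, with 0.0712 (edgeR). The median differences of 1.07 and 1.11 points lay near the 0.97 points of all promoters, and the mitochondrial background was higher in B cells as well, whose part was not tested. The receptor gene Erbb2 (0.92 points) and Bptf (1.41 points) were not called under either rule.

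Between the sexes, 2 of these 20 promoters were higher in females, against 1.99% of all promoters called in either direction, and both genes lie on the X chromosome. All promoters include those of the autosomes, and the share called among X promoters was not counted. The count is therefore not read as a trait of the partner genes. Smarca1, the ISWI ATPase gene whose product pairs with CECR2, stood at 36.3% and 44.5% in female B and T cells and at 11.5% and 10.3% in male B and T cells (29.5 points, edgeR adjusted p = 9.35e-16). Rbbp7, a histone chaperone gene, differed by 36.7 points (edgeR, adjusted p = 2.82e-66).

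Beyond the promoters, the tiles within 20 kb of the partner genes were counted. Around the 12 remodelling genes 10 of 1048 tiles (0.954%) were lower in B cells and 58 (5.53%) higher, and around the 8 signalling genes 12 of 763 (1.57%) were lower and 49 (6.42%) higher, against 0.812% and 2.36% of all tiles. All tiles include those far from genes, and tiles near genes in general were not counted. Nothing is therefore read from these shares about the partner genes. The strongest tile lower in B cells near a partner gene was at Igf1r, which encodes the insulin-like growth factor receptor, at -50.6 points, and the strongest higher was at Plcg1, at 83.4 points.

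The tiles outside the windows whose levels lay closest to the chosen tiles over the 4 libraries were named by their nearest protein-coding gene. For both loci the closest was a tile 127188 bases from Qrsl1 on chromosome 10, at a Euclidean distance of 4.73 points from the Memo1 tile and 3.22 points from the Cecr2 tile. Also among the 5 closest to each were tiles in Ms4a1 (B minus T -91.6 points), within Cenps, which encodes a centromere protein (-92.2 points), and 71500 bases from Cpm, which encodes a carboxypeptidase (-89.3 points). The remaining ones were near Wdfy4 for Memo1 and near Gm9945 for Cecr2. These likenesses describe 4 libraries and were not tested.

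Letters of known motifs were searched on both strands in the chosen tiles and blocks. In the Memo1 block the E-box letters CAGCTG stood at 74201214, next to the CpG at 74201220, and the E-box letters CACCTG at 74201167. These are found in 35.5% and 50.6% of all tested tiles. The Memo1 tile also held the RUNX letters TGTGGTTT at 74201692 (7.91% of all tiles) and the IRF letters AANNGAAA in 2 places (73.7%). In the Cecr2 block CAGCTG occurred 2 times, first at 120635823, within the sequence shown above, and CACCTG 1 time at 120635937, while the Cecr2 tile held AANNGAAA in 3 places. GAGGAAGT of the PU.1 type, CCGGAAGT of the ETS core, the octamer ATGCAAAT, CCCNNGGG of the EBF core, GGANTTTCC for NF-kB and AGGGGGC of the CTCF core were not found in either tile or block. They are held by 6.19%, 0.898%, 7.23%, 18.2%, 3.32% and 9.42% of all tiles. The blocks also differed in composition, with 58.1% GC and 4.76 CpGs per 100 bases at Memo1 and 48.3% GC and 1.70 CpGs per 100 bases at Cecr2. By definition a block begins and ends at a CpG, so these densities depend on the borders. Over the longest possible extents, 1927 bases at Memo1 and 1857 at Cecr2, both densities would be lower. The difference in CpG density is therefore not read as a difference between the loci.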

How the data were processed

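Whole-genome oxidative bisulfite libraries were processed by the submitters, whose notes name Trim Galore, FastQC, Bismark 0.13.1 and the build mm10. The methods describe a value for each strand of a CpG in bedgraph files, whereas the deposited tables list 1 position per CpG, on the C of the forward strand. How the strands were combined in them, and whether duplicates were removed or 1 or both samples of a group pooled, is not given in the sources used here. The labels tie each table to 2 samples, but the number in its name is that of only 1 of them. Each deposited table gives, per CpG with at least 5 reads, a methylation fraction and a count of reads. The deposited tables have no header. The authors' fraction times the count was rounded down to whole methylated reads. These reads over the count, rounded up to the decimals of the tables, gave back the listed fraction at 100% of sites (tolerance 1e-06). All positions fell on CG of the reference.

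Reads were summed over 1-kb tiles and promoters where 5 or more CpGs had a value in every library and each library had 20 or more reads. Methylated and unmethylated counts were fitted with edgeR 4.0.16 (glmQLFit, common dispersion from 20000 tiles) with terms for cell type and sex, and adjusted by Benjamini-Hochberg over all tiles or promoters. Tests of B minus T between the sexes replaced the sex term by female B and male T against female T and male B. The minimum of 20 points applied to that difference of means, which is smaller than the gap between the sexes in B minus T. A call on this contrast therefore needed a gap well over 20 points, a stricter rule than for the other contrasts. Limma 3.58.1 on log ratios was the alternative. The fit was tested on simulated data drawn without spread between libraries, so that test says nothing about such spread. Copies were found with blastn (E-value limit 1e-05). The members, gene lists and motifs were chosen with earlier results of these data known. The genes named were the members, other genes in the windows, the listed partners and markers, and the genes nearest the 5 most similar tiles. No table column was left unmapped.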

Additional observations from a re-analysis of the deposited data

How the results depend on the processing

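Of 75 alternative values, 71 equalled the main value, stayed within 1.5 times of it or, for block levels, stayed within its interval. Counts of 0 under both settings are among these. Blocks were compared by their number of CpGs and not by their width. With at least 10 reads in every library the Memo1 block kept 3 CpGs and the tiles called higher in B cells fell to 4, with 129 tiles tested. Without a minimum difference, 31 tiles were higher in B cells and 8 partner promoters were called. The Memo1 block had 5 CpGs under every other alternative tried. The Cecr2 block grew to 25 CpGs over 2637 bases at a limit of 30 points, to 22 when 2 CpGs in a row could miss, and to 20 over 1820 bases with females only or without the male B cells. Its left edge then moved to 120634729 in the first and last of these cases. Leaving out each library in turn gave 15 to 17 tiles lower and 8 to 11 higher in B cells. All 16 alternative block levels stayed within their intervals.

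No paired analysis was possible because the replicate numbers do not repeat between groups. Depth limits single CpGs, since some rest on 5 to 10 reads, and the Memo1 border towards the gene start cannot be placed within 1555 bases that hold no CpG.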
